A study of Mus musculus with 53 samples.

Results

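Pou5f1 (also called Oct4), Nanog and Sox2 are the transcription factors at the core of the pluripotency network of mouse embryonic stem (ES) cells. Their signals were read on 53 Affymetrix arrays in 15 groups, in ES cells with and without the Polycomb proteins Ezh2 or Eed and in 4 kinds of differentiated cell. The members were the probe sets annotated to exactly 1 gene symbol equal to Pou5f1, Nanog or Sox2, and each of the 3 genes had 1 such probe set: 1417945_at for Pou5f1, 1429388_at for Nanog and 1416967_at for Sox2. They are 3 of the 18193 genes that a probe set of 1 symbol represents, and all 3 are among the 13807 genes that were tested because their probe set lay above the array median in at least 2 arrays. Pou5f1 lay above the array median in 49 arrays, Nanog in 49 and Sox2 in 51. The array medians were between 50.5 and 63.0 signal units, so a signal below about that level was among the dim part of the array.

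The wild-type groups were ES cells of the lines J1, CJ7 and E14tg1, undifferentiated at day 0 (n = 7: 2 J1, 2 CJ7 and 3 E14tg1) and at day 2 (n = 4: 2 J1 and 2 CJ7), day 6 (n = 5: 3 J1 and 2 CJ7) and day 8 (n = 2, both CJ7) of withdrawal of LIF, the cytokine that keeps mouse ES cells undifferentiated. The Ezh2-null ES cells were sampled at days 0 (n = 6), 2 (n = 4), 6 (n = 5) and 8 (n = 2), and the Eed-null ES cells at days 0 (n = 5), 2 (n = 2) and 6 (n = 2). The labels describe the mutants as homozygous knockouts and do not name their parental line or the number of clones, so that genotype and line cannot be told apart. ES cells were cultured on feeders, and the feeders were depleted before harvest by letting them attach. The 4 other groups were T-GFP cells, which carry GFP under the promoter of brachyury (n = 2), neuronal progenitors marked by Sox1-GFP (n = 3), neural stem cells (NSC, n = 2) and mouse embryonic fibroblasts (MEF, n = 2). Replicates are called biological in the labels, without saying what was repeated, so p-values measure the spread between these arrays.

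Pou5f1 is a POU-domain factor that binds DNA next to Sox2, an HMG-box factor, at joined POU and Sox sites in many ES cell genes, their own genes included. Nanog is a homeodomain factor that makes ES cells less dependent on LIF. Its level is the most variable of the 3 among single ES cells, and it is lowered early when they leave the naive state. Pou5f1 is retained in the primed epiblast and into the primitive streak, and it is silent in somatic cells. Sox2 has a separate life in the nervous system, where it marks progenitors and neural stem cells. Polycomb repressive complex 2, which contains Ezh2 and Eed, methylates histone H3 at lysine 27 and keeps developmental genes silent.

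All 3 genes lie on the forward strand: Pou5f1 at chr17:35506032-35510777, Nanog at chr6:122707489-122714633 and Sox2 at chr3:34649995-34652461 (RefSeq, GRCm38.p6). The files do not say where in a gene a probe set lies. The 250 bases before each start, from RefSeq's promoters of that build, are shown because the 3 factors are known to bind each other's regulatory sequences. Capitals mark matches, on either strand, to the POU core TTTGCAT, the Sox core ACAATG, the GC box GGGCGG and the nuclear receptor element AGGTCA. The windows are chr17:35505782-35506031, chr6:122707239-122707488 and chr3:34649745-34649994, each printed 5′ to 3′ up to the base before the start.
Pou5f1: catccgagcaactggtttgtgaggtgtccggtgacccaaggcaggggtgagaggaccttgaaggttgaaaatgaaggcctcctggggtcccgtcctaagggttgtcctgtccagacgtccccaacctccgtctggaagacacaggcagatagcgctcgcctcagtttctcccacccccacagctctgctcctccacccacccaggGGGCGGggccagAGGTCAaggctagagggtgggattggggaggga
Nanog: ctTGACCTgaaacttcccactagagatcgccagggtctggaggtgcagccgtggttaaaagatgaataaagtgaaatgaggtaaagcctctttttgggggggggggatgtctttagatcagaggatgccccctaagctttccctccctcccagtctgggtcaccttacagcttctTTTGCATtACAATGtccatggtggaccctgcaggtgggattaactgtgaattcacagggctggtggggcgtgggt
Sox2: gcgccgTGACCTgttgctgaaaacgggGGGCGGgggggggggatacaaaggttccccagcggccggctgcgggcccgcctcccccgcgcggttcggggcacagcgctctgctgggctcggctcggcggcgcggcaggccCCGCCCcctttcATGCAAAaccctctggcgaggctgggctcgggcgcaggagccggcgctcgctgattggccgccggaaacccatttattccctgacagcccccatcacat

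The Nanog window holds a POU core from 75 to 69 bases before the start and a Sox core from 67 to 62 bases before it, 1 base apart on the same strand. That joined match was found in 2 of 32851 promoters (0.006%), both of them entries of 1 gene, Nanog. The POU core alone occurs in 4.1% of those promoters and the Sox core alone in 10.7%. The Sox2 window has a POU core on the other strand, ATGCAAA, from 99 to 93 bases before the start, and no Sox core. The Pou5f1 window holds neither core. It has a GC box from 45 to 40 bases before the start and a nuclear receptor element from 33 to 28 bases before it. GC boxes occur in 32.7% of promoters and the receptor element in 14%. Sox2 has 2 GC boxes, the nearer from 111 to 106 bases before the start, and Nanog has none; both have the receptor element on the other strand, from 244 to 239 bases before the start in Sox2 and from 248 to 243 in Nanog. The TATA sequence TATAAA, which 12.4% of promoters hold, is in none of the 3 windows. The GC content was 62.0% for Pou5f1, 52.0% for Nanog and 72.0% for Sox2, against a median of 52.4% over all promoters. These are matches of letters within this window, and no binding was measured.

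Before the comparisons, 3 properties of the arrays have to be given. At days 2 and 6 the arrays fall into a first set of 8 and a second set of 14 by the differences between probe sets of the same gene. To the second set belong replicates 3 and 4 of day 2 and replicates 3, 4 and 5 of day 6, in both wild-type and Ezh2-null cells, with every Eed-null array of those days. Ezh2-null replicate 3 at day 6 stood apart from the rest of its group for Nanog and Sox2, and had the lowest Pou5f1 signal of the group. For Ezh2, the 5 Ezh2-null arrays of that day, replicate 3 included, read 52.6 to 152.5, against 703.8 to 850.7 in wild type. Over all genes, 3.658% were at least 2-fold from the rest of the group in replicate 3, against 6.323% in replicate 1 and fewer in the other 3. Ezh2 itself was lower in Ezh2-null cells at every day, with log2 differences from -2.68 to -1.86, while the Eed probe set gave no check of its label, at 0.21 to 0.51 above wild type in Eed-null cells. Each difference below is a log2 difference of log2(signal + 32) with its standard error from 1 limma fit over all arrays; called means an adjusted p under 0.05 (Benjamini-Hochberg over all tested genes) together with a change of at least 2-fold. In bulk RNA, fewer cells that express a gene and less RNA per cell cannot be told apart, and this holds for every result below. Where arrays of groups are given as separate or not overlapping, the share of all genes so separated was not counted.

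Across the 15 groups Pou5f1 and Nanog covered the same range from ES cells down to near nothing in NSC and MEF, and Sox2 did not. Pou5f1 was highest in undifferentiated Ezh2-null cells, at 4181 ± 305 signal units (SD, n = 6), and in undifferentiated wild-type cells, at 4089.7 ± 229.6 (n = 7). It was lowest in NSC, at 27.3 ± 5.23 (n = 2), and MEF, at 27.8 ± 1.13 (n = 2), which are below the array medians. Going down the order of the 15 groups, neighbours did not overlap in 4 of 14 steps: from wild-type day 0 to Eed-null day 2, from Ezh2-null day 8 to Eed-null day 6, from there to T-GFP cells, and from Sox1-GFP cells to MEF. In the other 10 steps the arrays of neighbouring groups overlapped.

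**Figure D1:**
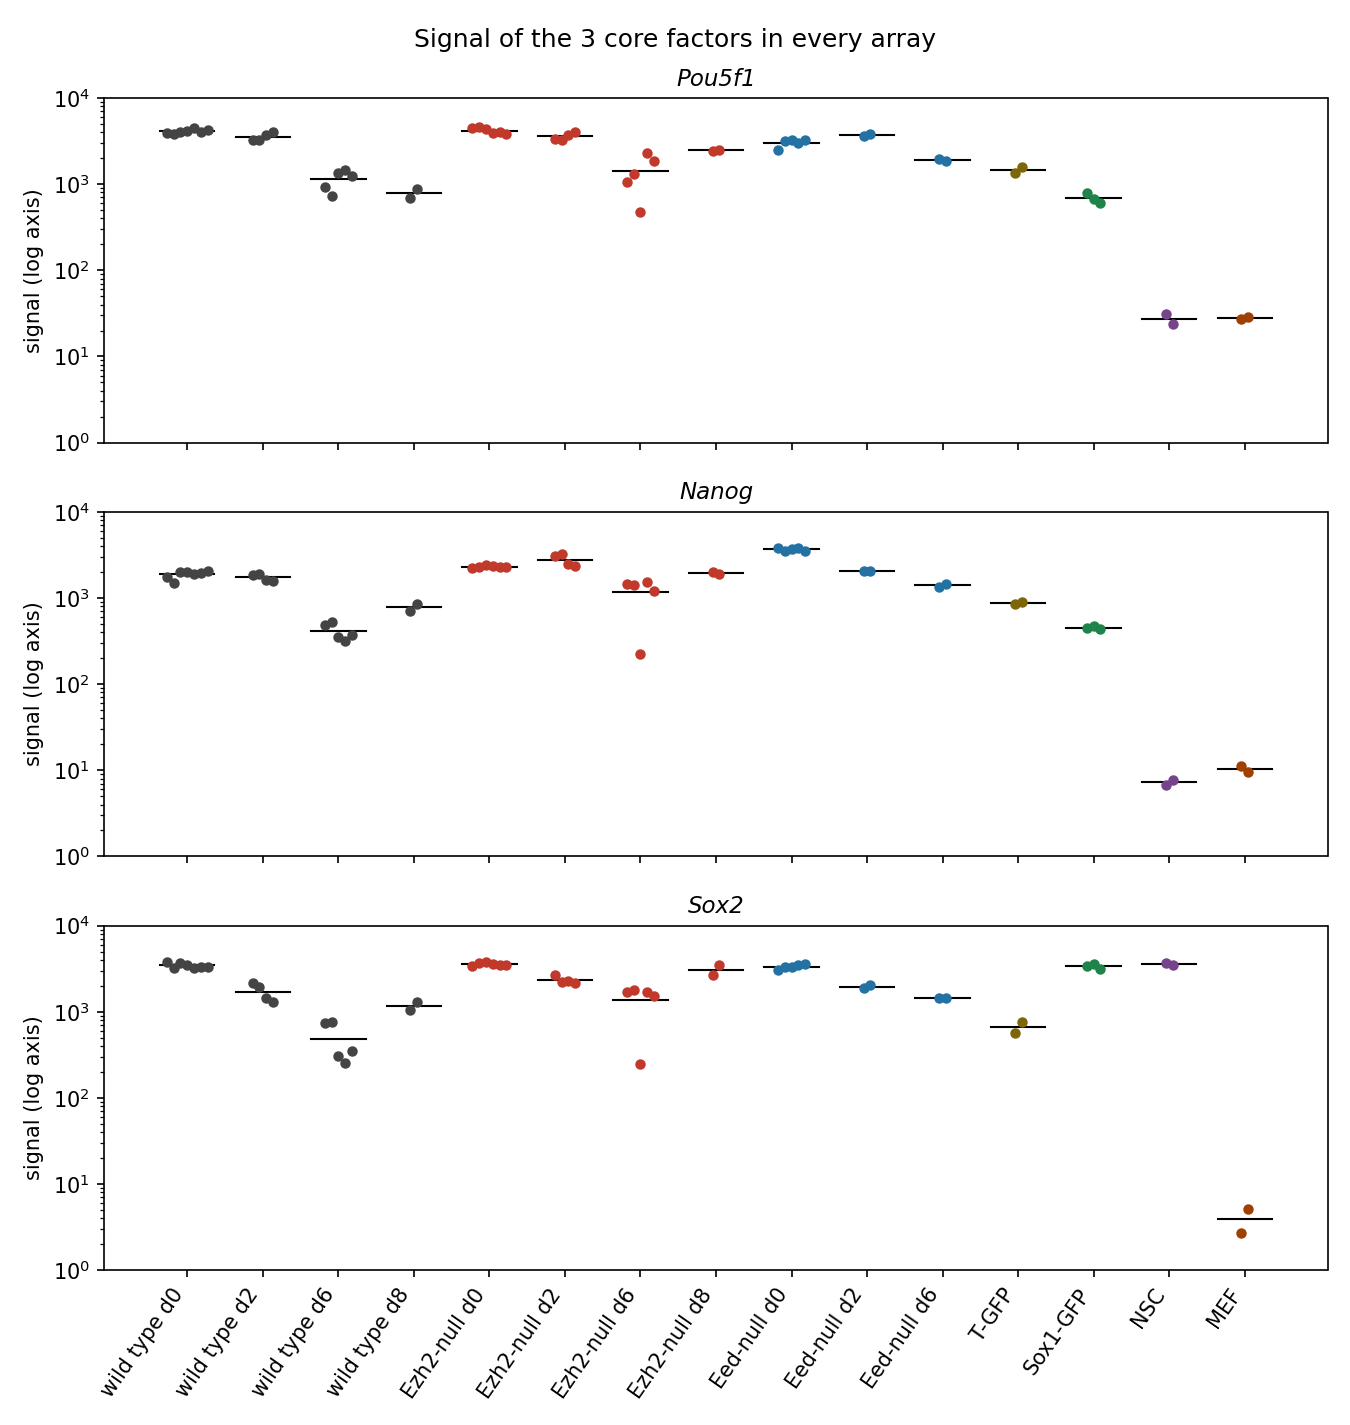
Signal of Pou5f1, Nanog and Sox2 (signal units, log axis) in each of the 53 arrays, by sample group; each point is an array and each line the group mean. In NSC and MEF, Pou5f1 has means of 27.3 and 27.8 and Nanog of 7.25 and 10.3, while Sox2 has means of 3567 in NSC and 3374 in Sox1-GFP cells.

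Nanog had another order. It was highest in undifferentiated Eed-null cells, at 3661 ± 149.8 (SD, n = 5), then in Ezh2-null cells at day 2, at 2774 ± 424 (n = 4), and at day 0, at 2315 ± 72.9 (n = 6). Wild-type day 0 cells, at 1874 ± 198 (n = 7), were only the sixth group, and wild-type day 6 cells, at 410.04 ± 88.4 (n = 5), were the lowest of the ES groups. Neighbours did not overlap in 8 of the 14 steps. The same count was not made for other genes, so it does not rank the 3 genes. NSC, at 7.25 ± 0.64 (n = 2), and MEF, at 10.3 ± 1.13 (n = 2), were far below the array medians.

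Sox2 was highest in NSC, at 3567 ± 119.5 (n = 2), and came next in Ezh2-null day 0 (3549 ± 134, n = 6), wild-type day 0 (3443 ± 235, n = 7), Sox1-GFP (3374 ± 234, n = 3) and Eed-null day 0 cells (3341 ± 219.5, n = 5). None of the first 7 groups was separated from its neighbour in the order; the first step without overlap came between Ezh2-null and Eed-null cells at day 2. In all, 3 of 14 steps were without overlap. In MEF it was far below the array medians, at 2.70 and 5.10 in the 2 arrays.

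In wild-type cells Sox2 was called lower at day 2 of LIF withdrawal and all 3 genes at day 6; no test compared the genes with each other. Pou5f1 had a lowest, median and highest signal of 3803, 4041 and 4499 at day 0 (n = 7). At day 2 its 4 arrays read 3249.6, 3246, 3709 and 4026, and the difference from day 0 was -0.20 ± 0.20 (adjusted p = 0.448, limma). Nanog had 1478, 1947 and 2035 at day 0 and read 1826, 1893, 1625 and 1572 at day 2, a difference of -0.11 ± 0.23 (adjusted p = 0.749, limma). The arrays of the 2 days overlapped for both Pou5f1 and Nanog, and the 95% interval of neither gene's difference reached 2-fold. Sox2 went from 3212, 3348 and 3829 (lowest, median, highest) at day 0 to 2131, 1962, 1449 and 1302 at day 2, with every day 2 array below every day 0 array. Sox2 fell by 1.02 ± 0.28 (adjusted p = 0.00353, limma), to 49.7% of its day 0 mean, and the second array set was the lower one: 1375 on average, against 2046.5 in the first set. Within line CJ7, whose day 2 arrays are both of the second set, the Sox2 difference was -1.36 and called; within J1, whose day 2 arrays are of the first set, it was -0.77 (adjusted p = 0.264) and not called. The call is also lost without day 2 replicate 3 or 4 or day 0 replicate 1, and with array weights (-0.75). From day 0 to day 2, 3.43% of all tested genes were called, so Sox2 was 1 of 474.

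Of 24 tested partners, which are transcription and chromatin factors that work with the 3 genes in ES cells, none rose and 9 fell from day 0 to day 2 in wild-type cells. Their median was -0.58, against 0.00 over all genes. Those that fell most were Klf4 (-2.99), a target of LIF signalling, and the nuclear receptors Nr0b1 (-2.78) and Esrrb (-2.67). Of 20 tested targets, genes known to be bound and activated by Pou5f1 with Sox2 or Nanog, 2 rose and 6 fell (median -0.57). Tcl1 (-2.55) and Fbxo15 (-2.19) were among those that fell, and Lin28a (1.38), an RNA-binding protein that blocks let-7 maturation, rose. Of 11 tested genes of the primed epiblast, 5 rose, led by Fgf5 (3.64) and Pim2 (2.68), and none fell. The other 15 partners and 6 primed epiblast genes were not called.

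From day 2 to day 6 all 3 genes fell in wild-type cells. Pou5f1 read 921, 721, 1334, 1441 and 1251 in the 5 arrays of day 6, all below every day 2 array, and fell by 1.66 ± 0.21 (adjusted p = 4.78e-08, limma). Nanog read 483, 523, 352, 316 and 376 and fell by 2.01 ± 0.25 (adjusted p = 2.95e-08, limma). Sox2 read 746, 761, 310.2, 254 and 348 and fell by 1.86 ± 0.29 (adjusted p = 3.57e-06, limma). The first 2 arrays, of the first set, were the lowest for Pou5f1 and the highest for Nanog and Sox2. The means of the first and second set were 821 and 1342 for Pou5f1, 503 and 348 for Nanog, and 754 and 304 for Sox2. J1 replicate 3, of the second set, read like the CJ7 arrays, which are also of that set. No CJ7 array of day 6 is in the first set, and the part of the line in this split was not tested. The falls were called within each set too: -1.95 and -1.51 for Pou5f1 in the first and second set, -1.82 and -2.10 for Nanog, -1.40 and -2.07 for Sox2. From day 2 to day 6, 4.51% of all genes were called.

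**Figure D2:**
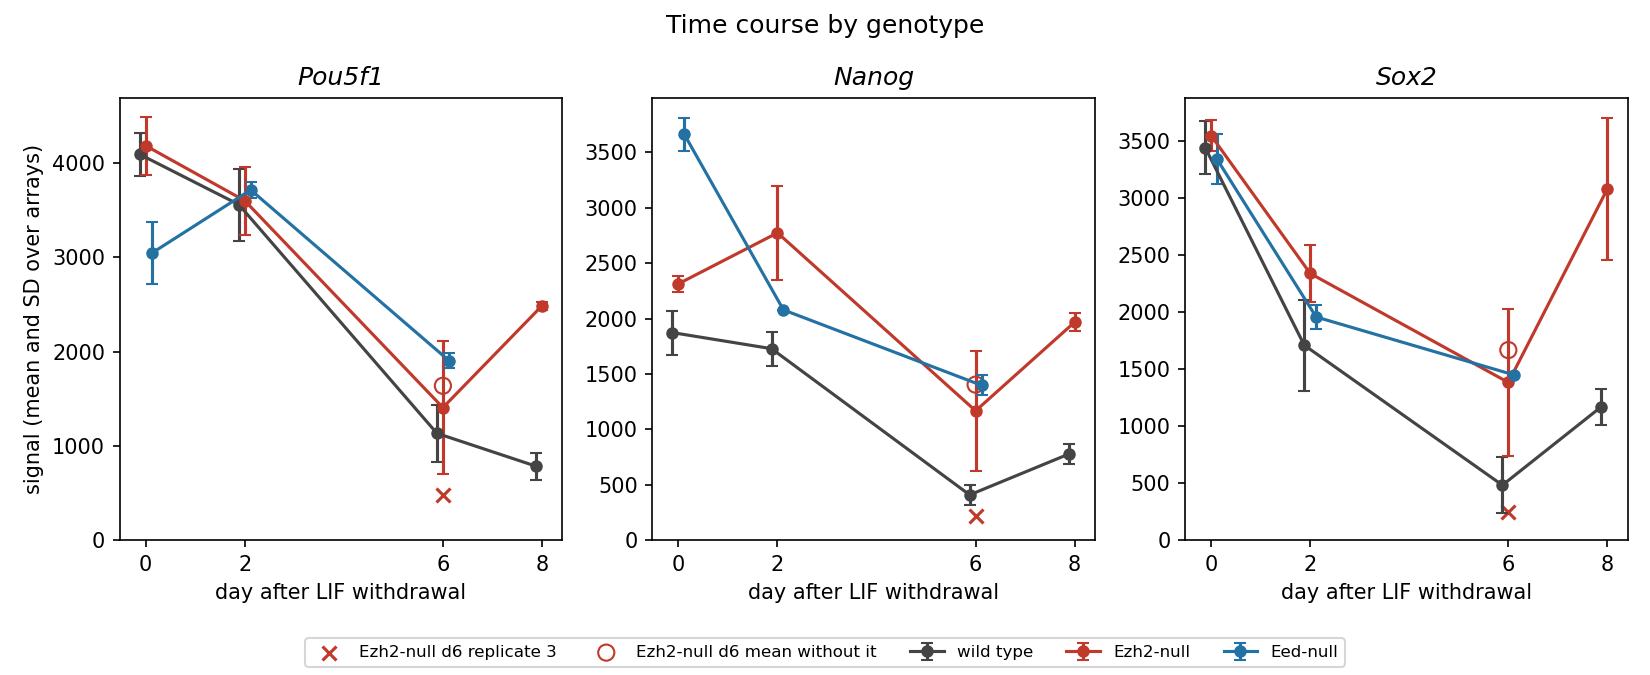
Mean signal (signal units) of the 3 genes against day of LIF withdrawal in the 3 genotypes of ES cell; bars are SD over the arrays of a group, the cross is Ezh2-null replicate 3 at day 6, and the open circle is the mean without it. Wild-type Nanog and Sox2 are lowest at day 6, at 410.04 and 484, and both mutants stay above them.

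Over the whole interval from day 0 to day 6 in wild-type cells, the differences were -1.86 ± 0.18 for Pou5f1, -2.12 ± 0.22 for Nanog and -2.88 ± 0.26 for Sox2, which left 27.7%, 21.9% and 14.1% of the day 0 means (adjusted p = 1.66e-11, 4.82e-11 and 9.66e-13, limma). In that comparison 10.3% of all genes were called. Of the partners none rose and 13 of 24 fell (median -1.11), and of the targets 1 rose and 15 of 20 fell (median -2.11), against 0.04 over all genes. The targets that fell most were Fbxo15 (-3.79), Dnmt3l (-3.73), a cofactor of the de novo DNA methyltransferases, and Fgf4 (-3.56), the growth factor whose enhancer carries a classical joined POU and Sox site. Lin28a (1.18) was the target that rose. Of 17 tested genes of the primitive streak and early mesoderm, 14 rose (median 2.06) and none fell, led by Aplnr (4.38) and Mixl1 (4.11).

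From day 6 to day 8 Sox2 was called higher in wild-type cells, and Pou5f1 and Nanog were not called. Pou5f1 read 684 and 887 at day 8 and its difference was -0.48 ± 0.26 (adjusted p = 0.308, limma). Nanog read 713 and 843, both above all 5 arrays of day 6, with a difference of 0.89 ± 0.31 (adjusted p = 0.112, limma). Without the Ezh2-null array that stood apart, which enters here through the shared spread, its adjusted p is 2.84e-05, under 2-fold. Sox2 read 1060.5 and 1284, again above every array of day 6, and rose by 1.35 ± 0.37 (adjusted p = 0.0367, limma). Pou5f1 was thus at 19.2% of its day 0 mean at day 8, with Nanog at 41.5% and Sox2 at 34.1%. In this comparison 0.963% of all genes were called. Both day 8 arrays are CJ7. Against the CJ7 arrays of day 6 alone, the differences were -0.76 for Pou5f1 (adjusted p = 0.0673), 1.10 for Nanog (adjusted p = 0.0372, called) and 1.86 for Sox2 (adjusted p = 0.00163, called, limma). On the measure that separates the array sets, the day 8 arrays scored -16.06 and -18.1, within the range of the first set (-21.3 to -7.6). The CJ7 arrays of day 6, of the second set, scored 27.8 and 20.8, so that array set and day cannot be told apart within CJ7. At day 6 the first set, J1 replicates 1 and 2, averaged 821 for Pou5f1, 503 for Nanog and 754 for Sox2. The second set averaged 1342, 348 and 304. With the replicate number as a block, which sets day 8 against those first-set arrays, the Sox2 rise was under 2-fold and not called. The Sox2 call is lost without either day 8 array or without day 6 replicate 3, 4 or 5, with adjusted p from 0.101 to 0.417.

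Of the 24 partners, 5 rose from day 6 to day 8 in wild-type cells and none fell (median 0.26, against 0.03 over all genes). Klf2 (1.65), Zfp42 (1.52; also called Rex1, a marker of undifferentiated ES cells) and Tfcp2l1 (1.35) led them. Of the targets Fbxo15 (1.35) and Dppa5a (1.11) rose and none fell. Of 17 streak genes 6 fell, with Mixl1 (-2.89) and Eomes (-2.29) among them, and 5 of 17 fibroblast genes rose, with Postn (3.97) and Col3a1 (3.04) first. The summed signal of the fibroblast genes was 14165 to 15279 at day 8, against 6732 to 9865 at day 6; the part of other cells in the change of the 3 genes was not tested.

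In undifferentiated cells none of the 3 genes was called between Ezh2-null and wild-type cells. Pou5f1 differed by 0.03 ± 0.18 (95% interval -0.32 to 0.38) and Sox2 by 0.05 ± 0.24 (-0.45 to 0.54), both with adjusted p = 0.99 (limma). Nanog was 2239.9 to 2429 in the 6 Ezh2-null arrays, all above the highest wild-type array at 2035. Its difference was 0.31 ± 0.21 (95% interval -0.11 to 0.73, adjusted p = 0.681, limma) and did not pass the test. Without the Ezh2-null array of day 6 that stood apart, which enters through the shared spread, the same 0.31 had an error of 0.085 (adjusted p = 0.0603, limma). In this comparison 0.0507% of all genes were called, 7 genes, and 1480 had an unadjusted p under 0.05. None of the partners or targets was called, and among the primed epiblast genes Otx2 (1.31), which works with Pou5f1 in the primed state, was higher.

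Undifferentiated Eed-null cells carried more Nanog. The 5 arrays read 3770.3, 3478, 3718, 3813 and 3528, against at most 2035 in wild type, a ratio of means of 1.95. The difference was 0.96 ± 0.22 (adjusted p = 0.000458, limma), which passed the test and fell short of 2-fold. Pou5f1 read 2479.8, 3151.5, 3296, 3037 and 3247, all below the lowest wild-type array at 3803. Its difference was -0.43 ± 0.18 (adjusted p = 0.0577, limma), and 0.00723 without the Ezh2-null array that stood apart, under 2-fold in both fits. Sox2 differed by -0.04 ± 0.26 (adjusted p = 0.912, limma). So in these cells Nanog was higher and Pou5f1 read lower in every array. In this comparison 2.26% of all genes were called.

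Fibroblast and endoderm genes moved with the Eed-null day 0 group. Of 17 fibroblast genes 8 were higher and none lower (median 0.97, against 0.04 over all genes), and of 14 endoderm genes 5 were higher. The summed fibroblast signal was 11008, 8506, 7178 and 8142 in Eed-null replicates 1 to 4 and 1553 in replicate 5, against 1038 to 4469.7 in wild type and 55742 to 66106 in MEF. Replicate 5, with a fibroblast sum within the wild-type range, had Nanog at 3528 and Pou5f1 at 3247, within the range of the other 4 arrays. The endoderm sum was 2890.1 to 6135 in the 5 Eed-null arrays, against 1064 to 1725 in wild type, and its part was not tested. None of the 24 partners was called; of the 20 targets Dppa3 (1.37), a maternal factor also called Stella, and Lefty2 (1.26), an inhibitor of Nodal, were higher.

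At day 2 no member was called in either mutant. Pou5f1 differed from wild type by 0.02 ± 0.22 in Ezh2-null (adjusted p = 0.998) and by 0.07 in Eed-null cells (adjusted p = 0.925, limma). Nanog read 3070.5, 3196, 2507 and 2324 in the 4 Ezh2-null arrays, all above the wild-type maximum of 1893. The first set was again the higher one, with means of 3133 and 2415.5 in the first and second set. The difference was 0.66 ± 0.26 (adjusted p = 0.324, limma); without the Ezh2-null array of day 6 that stood apart, which takes part in this fit through the shared spread, the adjusted p is 0.000393, still under 2-fold. Eed-null Nanog read 2080.0 and 2078, also above wild type, with a difference of 0.27 ± 0.32 (adjusted p = 0.7, limma). Sox2 in Ezh2-null cells, at 2156 to 2703, was above every wild-type array, with a difference of 0.47 ± 0.31 (adjusted p = 0.768, limma). In these comparisons 0.123% (Ezh2-null) and 1.04% (Eed-null) of all genes were called. Of the partners and targets none was called in Ezh2-null cells; in Eed-null cells Nr0b1 (1.90), Dnmt3l (2.00) and Fgf4 (1.28) were higher.

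At day 6 both mutants kept more Nanog and Sox2 than wild-type cells. In Ezh2-null cells Nanog read 1461, 1413, 223, 1537 and 1209.6, and 4 of the 5 arrays were above the wild-type maximum of 523 while replicate 3 was below its minimum of 316. The ratio of means was 2.85 and the difference 1.22 ± 0.24 (adjusted p = 9.58e-05, limma); without replicate 3 it was 1.72 ± 0.10. Sox2 read 1683, 1777, 249, 1689 and 1524.5, with the same array below every wild-type array. Its ratio of means was 2.86 and its difference 1.33 ± 0.28 (adjusted p = 0.000258, limma), or 1.85 ± 0.18 without replicate 3. Pou5f1 read 1050.1, 1328, 481, 2303 and 1869, and overlapped the wild-type arrays. Its difference was 0.17 ± 0.20 (adjusted p = 0.607, limma) and was not called, nor was it without replicate 3, at 0.50 ± 0.15 (adjusted p = 0.0127), where it is under 2-fold. In this comparison 3.03% of all genes were called. By array set, Nanog differed by 1.46 in the first and 1.06 in the second set and Sox2 by 1.16 and 1.45, all called. For Pou5f1 the values were 0.52 and -0.06, neither called. Fitted with the arrays of these groups alone, which gives replicate 3 more weight in the spread, Nanog (1.22, adjusted p = 0.11) and Sox2 (1.33, adjusted p = 0.133) were not called, and against the J1 arrays alone Sox2 was at 0.99 and not called.

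**Figure D3:**
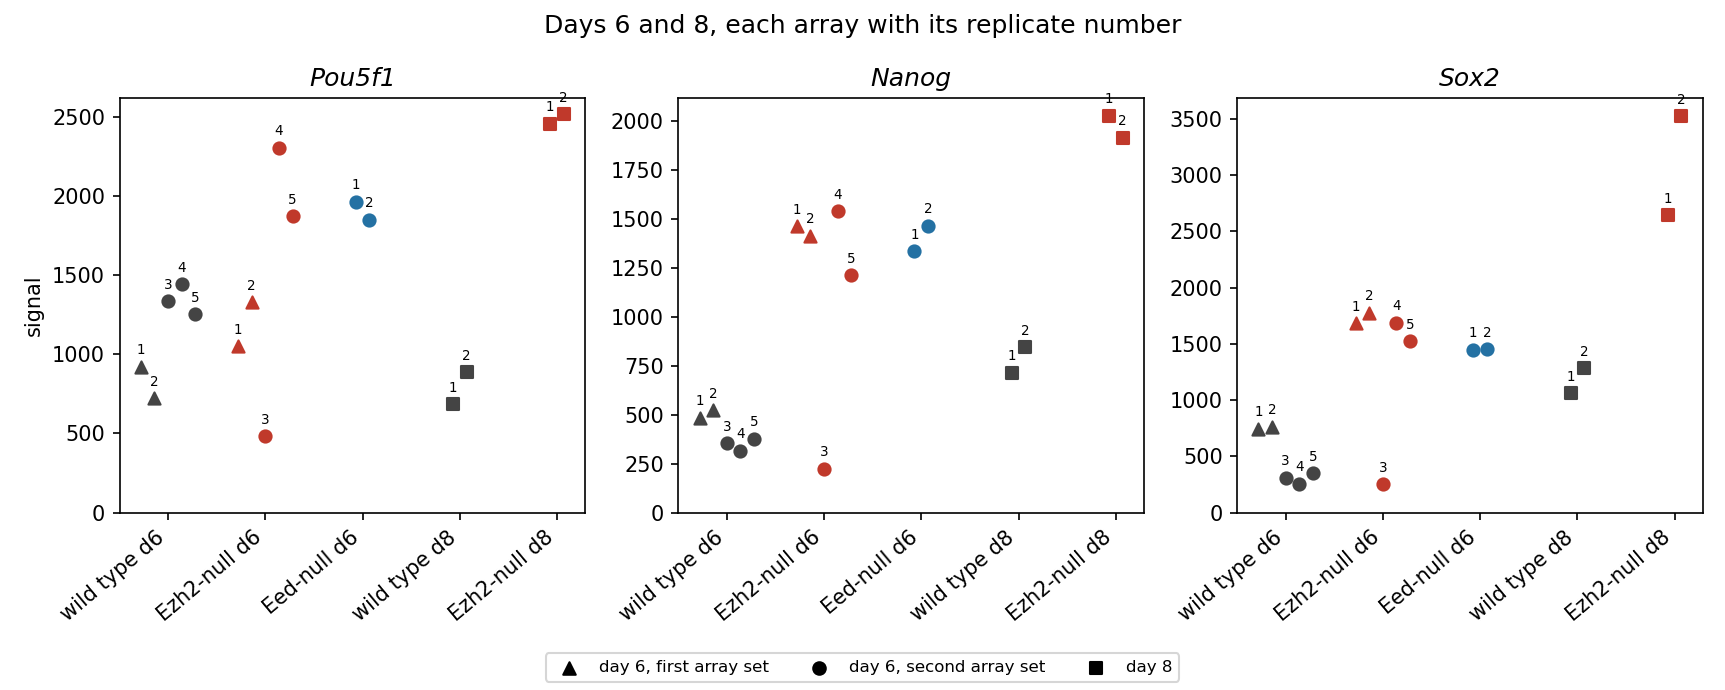
Signal (signal units, linear axis) of the 3 genes in every array of days 6 and 8, numbered by replicate. Triangles are the first array set, circles the second, squares day 8. Ezh2-null replicate 3 at day 6 lies below all wild-type arrays of that day, at 481, 223 and 249, and the other 4 Ezh2-null arrays lie above them for Nanog and Sox2.

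In Eed-null cells at day 6 the 2 arrays were close to each other. Nanog read 1334 and 1463.5, a ratio of means of 3.41 over wild type, and was higher by 1.72 ± 0.31 (adjusted p = 9.48e-05, limma). Sox2 read 1446 and 1454, a ratio of 3.00, and was higher by 1.66 ± 0.37 (adjusted p = 0.00123, limma). Pou5f1 read 1963.5 and 1847, above the wild-type maximum of 1441, a ratio of 1.68. Its difference of 0.78 ± 0.26 passed the test (adjusted p = 0.0387, limma) and was under 2-fold. Against the wild-type arrays of the second set alone, to which both Eed-null arrays belong, the differences were 1.91 for Nanog, 2.15 for Sox2 and 0.50 for Pou5f1 (adjusted p = 0.279 for the last). In this comparison 3.1% of all genes were called. Ezh2-null and Eed-null cells are compared here with the same wild-type arrays, so that the values of the mutants share them.

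Part of the partners and targets were also higher in the mutants at day 6, and 11 of 17 streak genes were lower. In Ezh2-null cells 7 of 24 partners were higher and 1 lower (median 0.20, against 0.00 over all genes), with Nr0b1 (1.90), Esrrb (1.76) and Tfcp2l1 (1.73) first and Sall1 (-1.51) lower. Of 20 targets 7 were higher and 1 lower (median 0.42), with Dppa5a (1.58), Jam2 (1.48) and Dppa2 (1.36) first and Upp1 (-1.40) lower. Without replicate 3 the counts were 7 and 1 in both lists, with medians of 0.25 and 0.75. In Eed-null cells 6 partners were higher, among them Nr0b1 (2.39), Esrrb (2.37) and Zfp42 (1.82), and Sall1 (-1.79) was lower (median 0.31). Of the targets 10 were higher and none lower (median 0.82), led by Dnmt3l (1.85) and Dppa5a (1.81). Of 17 streak genes 11 were lower and none higher in either mutant, with medians of -1.30 and -1.34. Aplnr (-3.79 and -4.34) and Mixl1 (-3.53 and -3.90) were lowest. The summed streak signal was 4575 to 11002 in wild type, 1599.9 to 3087 in Ezh2-null and 1989.6 to 2030.3 in Eed-null cells. Its part in the levels of the 3 genes was not tested.

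Replicate 3 of the Ezh2-null cells at day 6 was low in genes of the network and near the rest of its group in streak genes. On the mean log2 scale of a list, its partners were at 8.45, against 9.35 to 9.59 in the other 4 arrays, and its targets at 8.23, against 9.43 to 9.63. Its streak genes were at 6.67, against 6.72 to 7.01. Its primed epiblast genes were also low, at 7.26, against 7.74 to 7.88 in the other 4. Its fibroblast genes were at 8.04, between the lowest (7.82) and the highest (8.36) of the other 4. By summed signal its fibroblast genes were the highest of the group, at 14430, against 12210 to 13280. Its endoderm sum was the highest too, at 8778, against 7481 to 8287. Leaving it out lowered the pooled residual SD over all groups from 0.33 to 0.23 for Pou5f1, from 0.39 to 0.15 for Nanog and from 0.46 to 0.27 for Sox2 (log2 scale).

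At day 8, which has 2 arrays per genotype and no Eed-null sample, Pou5f1 and Nanog were called higher in Ezh2-null cells and Sox2 was not called. All 3 genes read higher in every Ezh2-null array than in either wild-type array. The share of all genes so separated was not counted. Pou5f1 read 2454 and 2515, against 684 and 887, a ratio of 3.16 and a difference of 1.63 ± 0.31 (adjusted p = 0.00112, limma). Nanog read 2025 and 1912, against 713 and 843, a ratio of 2.53 and a difference of 1.31 ± 0.37 (adjusted p = 0.0457, limma). Sox2 read 2642 and 3523, against 1060.5 and 1284, with a difference of 1.36 ± 0.44 (adjusted p = 0.0947, limma). Sox2 did not pass the test, and did so without the Ezh2-null array of day 6 that stood apart (adjusted p = 0.000722). In this comparison 1.06% of all genes were called. The Pou5f1 call is lost without wild-type replicate 1 (adjusted p = 0.0739). The Nanog call is lost without any 1 of the 4 arrays (adjusted p from 0.164 to 0.427).

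Ezh2-null cells at day 8 had 60.8% of the wild-type day 0 mean of Pou5f1, 105% of that of Nanog and 89.5% of that of Sox2. Of 24 partners 3 were higher than in wild type, Nr0b1 (2.51), Esrrb (1.87) and the Polycomb protein gene Phc1 (1.32), and none was lower (median 0.61, against 0.03 over all genes). Of 20 targets 7 were higher and none lower (median 1.37), led by Dnmt3l (2.65), Fgf4 (2.39) and L1td1 (1.88). Without the array that stood apart, 5 partners and 12 targets were higher. Of 17 streak genes 3 were lower, Aplnr (-2.80), Lhx1 (-1.82) and Kdr (-1.57). The summed fibroblast signal was 13508 to 13833 in Ezh2-null and 14165 to 15279 in wild-type cells.

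**Figure D4:**
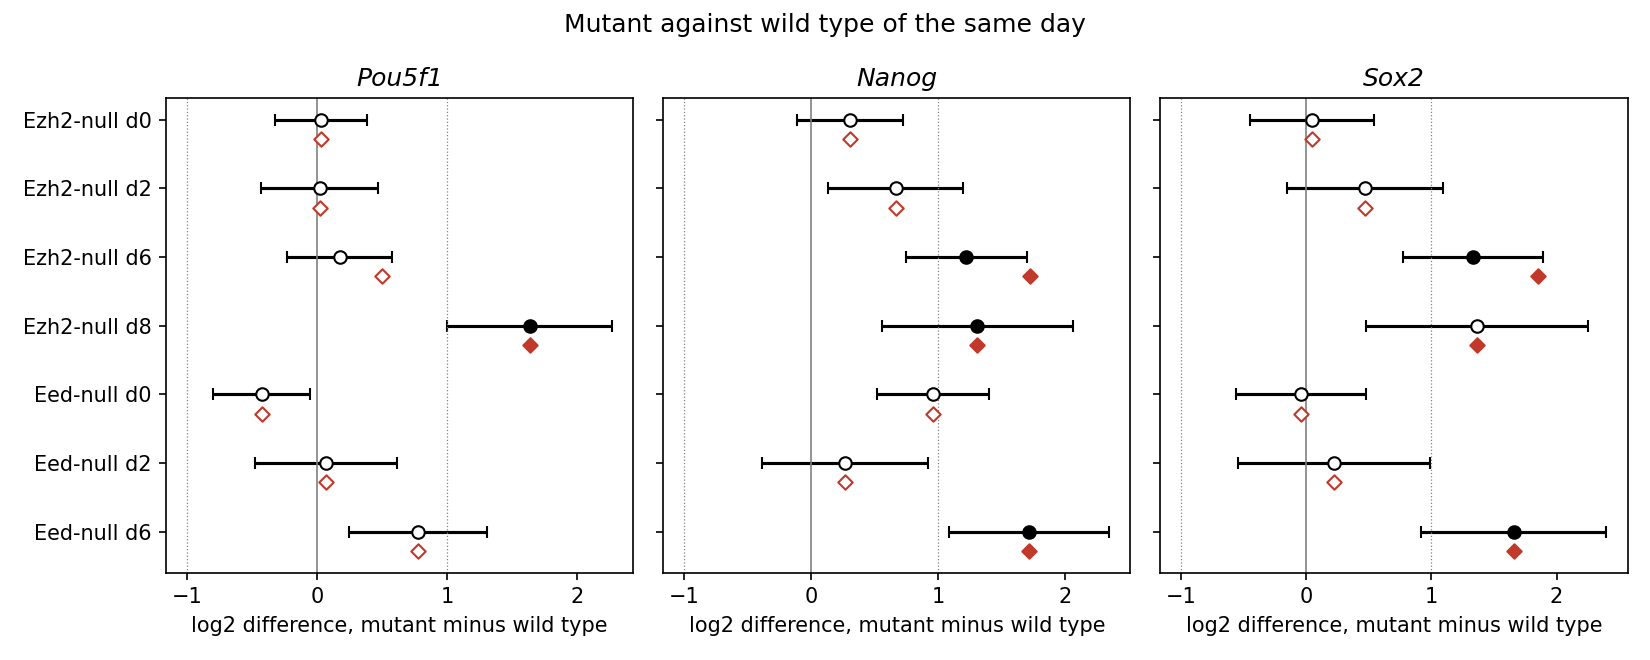
Log2 difference between mutant and wild-type cells at each day for the 3 genes, with 95% intervals; filled points are called, dotted lines mark 2-fold, and red diamonds are the fit without Ezh2-null replicate 3 at day 6. Pou5f1 is called at day 8 alone (1.63), Nanog at day 6 in both mutants (1.22 and 1.72) and at day 8 (1.31), and Sox2 at day 6 in both (1.33 and 1.66).

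Within Ezh2-null cells the 3 genes were lower at day 6 than at day 2 and read higher again at day 8. From day 0 to day 2 none was called: Pou5f1 -0.22, Nanog 0.25 and Sox2 -0.60 (adjusted p = 0.441, 0.463 and 0.103, limma), with 2.67% of all genes called. From day 2 to day 6 Pou5f1 fell by 1.51 ± 0.21 (adjusted p = 1.4e-07) and Nanog by 1.46 ± 0.25 (adjusted p = 6.37e-06), while Sox2, at -0.996 ± 0.29, passed the test (adjusted p = 0.00542, limma) at just under 2-fold. Here 8.79% of all genes were called. Without replicate 3 the values were -1.18 for Pou5f1, which stayed called, and -0.96 for Nanog and -0.48 for Sox2, which were not. From day 6 to day 8 Pou5f1 differed by 0.98 ± 0.26 and Nanog by 0.98 ± 0.31, both past the test (adjusted p = 0.00943 and 0.0277) and under 2-fold. Sox2 rose by 1.38 ± 0.37 (adjusted p = 0.00908, limma), with 2.64% of all genes called. Without replicate 3 these were 0.65, 0.48 and 0.86, none called. On the measure that separates the array sets, the Ezh2-null arrays of day 8 scored -18.2 and -14.3, within the range of the first set. Replicates 3, 4 and 5 of day 6 belong to the second set. Over days 0 to 6 the differences were -1.72 for Pou5f1, -1.21 for Nanog and -1.59 for Sox2, all called, among 16.3% of all genes. Without replicate 3 Nanog was at -0.71 and not called.

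Within Eed-null cells the steps between neighbouring days were not called for any of the 3 genes. From day 0 to day 2 the values were 0.29 for Pou5f1, -0.81 ± 0.31 for Nanog (adjusted p = 0.0586) and -0.76 ± 0.37 for Sox2 (adjusted p = 0.132, limma), with 3.51% of all genes called. Without the Ezh2-null array that stood apart, Nanog (adjusted p = 1.55e-05) and Sox2 (adjusted p = 0.0106) passed the test at these sizes, under 2-fold. From day 2 to day 6 Pou5f1 was at -0.95 ± 0.31, past the test (adjusted p = 0.0202, limma) and under 2-fold. Nanog was at -0.56 (adjusted p = 0.289, or 0.00428 without the Ezh2-null array that stood apart) and Sox2 at -0.42, with 9.06% of all genes called. Over days 0 to 6 Nanog fell by 1.37 ± 0.31 (adjusted p = 0.000551) and Sox2 by 1.18 ± 0.37 (adjusted p = 0.00932, limma), and Pou5f1 was at -0.66 ± 0.26, under 2-fold. In that comparison 10.1% of all genes were called. The Sox2 call is lost without either day 6 array (adjusted p = 0.0711 and 0.0693).

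Whether the course differed from wild type was tested directly as a difference of differences. From day 0 to day 6, Ezh2-null Sox2 changed by 1.29 ± 0.37 more than wild type (adjusted p = 0.012, limma) and was called. The call is lost with the replicate number as a block (1.30, adjusted p = 0.123), with only the arrays compared (adjusted p = 0.0867) and against the J1 arrays alone (0.98). Nanog, at 0.91 ± 0.31, passed the test (adjusted p = 0.0389) under 2-fold, or reached 1.41 and was called without replicate 3. Pou5f1 was at 0.14 ± 0.26 (adjusted p = 0.796). Of all genes 3.09% were called. In Eed-null cells the same test called Pou5f1, at 1.20 ± 0.32 (adjusted p = 0.00673), and Sox2, at 1.70 ± 0.45 (adjusted p = 0.00617, limma). Eed-null Pou5f1 differed from wild type by -0.43 at day 0 and by 0.78, under 2-fold, at day 6, so the lower start takes part in the 1.20. The Pou5f1 call is lost without Eed-null day 6 replicate 1 (adjusted p = 0.0582) and against the CJ7 arrays alone. The Sox2 call is lost against the J1 arrays alone. Nanog was at 0.75 ± 0.38 (adjusted p = 0.169, limma); without the Ezh2-null array that stood apart, the same 0.75 had an error of 0.16 and passed the test (adjusted p = 0.000528), under 2-fold. Of all genes 4.69% were called there. From day 6 to day 8, Ezh2-null Pou5f1 changed by 1.46 ± 0.37 more than wild type (adjusted p = 0.0172, limma), and by 1.13, still called, without replicate 3 of day 6. The call is lost without Ezh2-null replicate 1 or 2 of day 8 or wild-type replicate 1 of day 8 (adjusted p = 0.0627, 0.0969 and 0.194), and with only the arrays compared (adjusted p = 0.403). Nanog (0.09) and Sox2 (0.03) were not called. In that test 1.56% of all genes were called.

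The mutants were compared with each other at days 0 and 6. At day 0 Ezh2-null cells had less Nanog than Eed-null cells, at -0.65 ± 0.23 (adjusted p = 0.0187, limma), under 2-fold, and Pou5f1 read higher by 0.46 ± 0.19 (adjusted p = 0.0511). Sox2 differed by 0.09 (adjusted p = 0.818), and 2.2% of all genes were called. At day 6 none of the 3 was called, at -0.60 ± 0.26, -0.50 ± 0.31 and -0.32 ± 0.37 for Pou5f1, Nanog and Sox2, and 0.739% of all genes were. Without replicate 3 these became -0.28, 0.00 and 0.20.

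In all 4 differentiated cell types Pou5f1 and Nanog fell, and Sox2 was kept in the neural ones. T-GFP cells retained all 3 at a lower level. Pou5f1 read 1349 and 1576.5, or 35.8% of wild-type day 0, Nanog 855 and 894, or 46.7%, and Sox2 566 and 763, or 19.3%. The differences were -1.47 ± 0.25, -1.07 ± 0.30 and -2.33 ± 0.35 (adjusted p = 8.45e-06, 0.00386 and 7.92e-07, limma), with 9.5% of all genes called. The Nanog call is near 2-fold and is lost without T-GFP replicate 1 (adjusted p = 0.0504), against the J1 arrays alone (-0.86) and against wild-type day 0 replicates 1 to 3 (-0.96). Of 17 streak genes 14 were higher and none lower in these cells, led by Mixl1 (5.06) and Fgf8 (4.57). Of the partners 11 of 24 fell and none rose, and of the targets 13 of 20 fell while Lin28a (1.01) rose.

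Sox1-GFP neuronal progenitors kept Sox2 at the ES cell level and retained part of the others. Sox2 read 3399.6, 3593 and 3128, a difference from wild-type day 0 of -0.03 ± 0.30 (95% interval -0.64 to 0.58, adjusted p = 0.951, limma). Pou5f1 read 791, 666 and 605, or 16.8% of wild-type day 0, and fell by 2.53 ± 0.22 (adjusted p = 2.4e-13). Nanog read 443, 472 and 439.7, or 24.1%, and fell by 1.97 ± 0.26 (adjusted p = 1.58e-08, limma). Here 13.4% of all genes were called. Both were above the NSC and MEF arrays. Other genes of undifferentiated cells were also above that floor: Zfp42 read 110.5 to 291 and Dppa5a 2051 on average, against 15.5 and 69.5 in NSC. The part of undifferentiated cells among the sorted ones was not tested. Sox1 itself, the gene used for the mark, read 762 ± 23.3 (SD, n = 3), against 15.8 ± 10.6 (n = 7) in wild-type day 0.

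The Sox and POU relatives of Sox2 and Pou5f1 were also read in each group. Of 17 tested relatives 9 rose in Sox1-GFP cells, led by the neural POU gene Pou3f3 (4.77) and by Sox3 (4.28) and Sox1 (4.08), which belong to the same Sox subgroup as Sox2, and Sox15 (-1.15) fell. Their median was 1.07, against 0.07 over all genes. In T-GFP cells, where Sox2 fell, 4 of the 17 relatives rose, with Sox9 (2.03) first, against 768 of 13807 among all genes. In MEF, where Sox2 also fell, 3 of the 17 rose, with Sox9 (3.85) first, against 1965 of 13807 among all genes. In the fit without Ezh2-null replicate 3 at day 6, 1 relative fell in T-GFP cells and 2 fell in MEF. In Sox1-GFP cells 10 of 15 neural genes rose and none fell, with Fabp7 (5.99) first. In the same cells 14 of 24 partners fell and none rose, and of the targets 15 of 20 fell and Lin28a (1.29) rose. The noncoding transcript Sox2ot, within which Sox2 lies, had its highest signal in Sox1-GFP cells, at 210.3, against 52.4 in NSC and 4.30 to 27.6 in the other groups. Its share in the Sox2 signal was not tested.

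NSC had Sox2 at 3651 and 3482, a difference from wild-type day 0 of 0.05 ± 0.35 (95% interval -0.66 to 0.76, adjusted p = 0.911, limma). Pou5f1, at 31.0 and 23.6, fell by 6.12, and Nanog, at 6.80 and 7.70, fell by 5.59 (adjusted p = 2.61e-24 and 2.85e-20, limma), among 23.2% of all genes called. Both are below the array medians, so that these falls are set by the added 32 units. Of the partners 17 of 24 fell and none rose, and of the targets 18 of 20 fell. Of the relatives 8 of 17 rose, led by Pou3f3 (6.18) and Sox9 (5.78), and Sox15 (-1.38) fell. Against Sox1-GFP cells, Sox2 in NSC differed by 0.08 ± 0.40 (adjusted p = 0.89), Pou5f1 was lower by a log2 difference of -3.59 ± 0.29 and Nanog by -3.62 ± 0.34 (adjusted p = 4.54e-14 and 6.03e-12, limma), with 14.3% of all genes called. The relatives changed over between these neural groups: 4 were higher in NSC, with Sox9 (2.72) first, and 5 lower, with Sox1 (-3.39) and Sox3 (-1.86) among them.

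MEF lacked all 3. The differences from wild-type day 0 were -6.11 for Pou5f1, -5.49 for Nanog and -6.60 for Sox2 (adjusted p = 3.73e-24, 6.44e-20 and 3.14e-20, limma), with 24.1% of all genes called. All 3 MEF levels are below the array medians, so these sizes are also set by the added 32 units. Fibroblasts are also the cell type of the feeders, and their signals of the 3 genes were below the array medians. Of the targets 19 of 20 fell, and 16 of 17 fibroblast genes rose, led by Col3a1 (6.04). Between the GFP-marked groups, T-GFP cells had more Pou5f1, by 1.06 ± 0.29 (adjusted p = 0.00336), and less Sox2, at -2.30 ± 0.40 (adjusted p = 1.22e-05, limma), than Sox1-GFP cells. Nanog, at 0.91 ± 0.34, passed the test (adjusted p = 0.0348) under 2-fold. Of all genes 10.3% were called. Of the relatives 7 were lower in T-GFP cells, led by Pou3f3 (-4.76), and Sox17 (1.34), an endoderm gene, was higher.

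**Figure D5:**
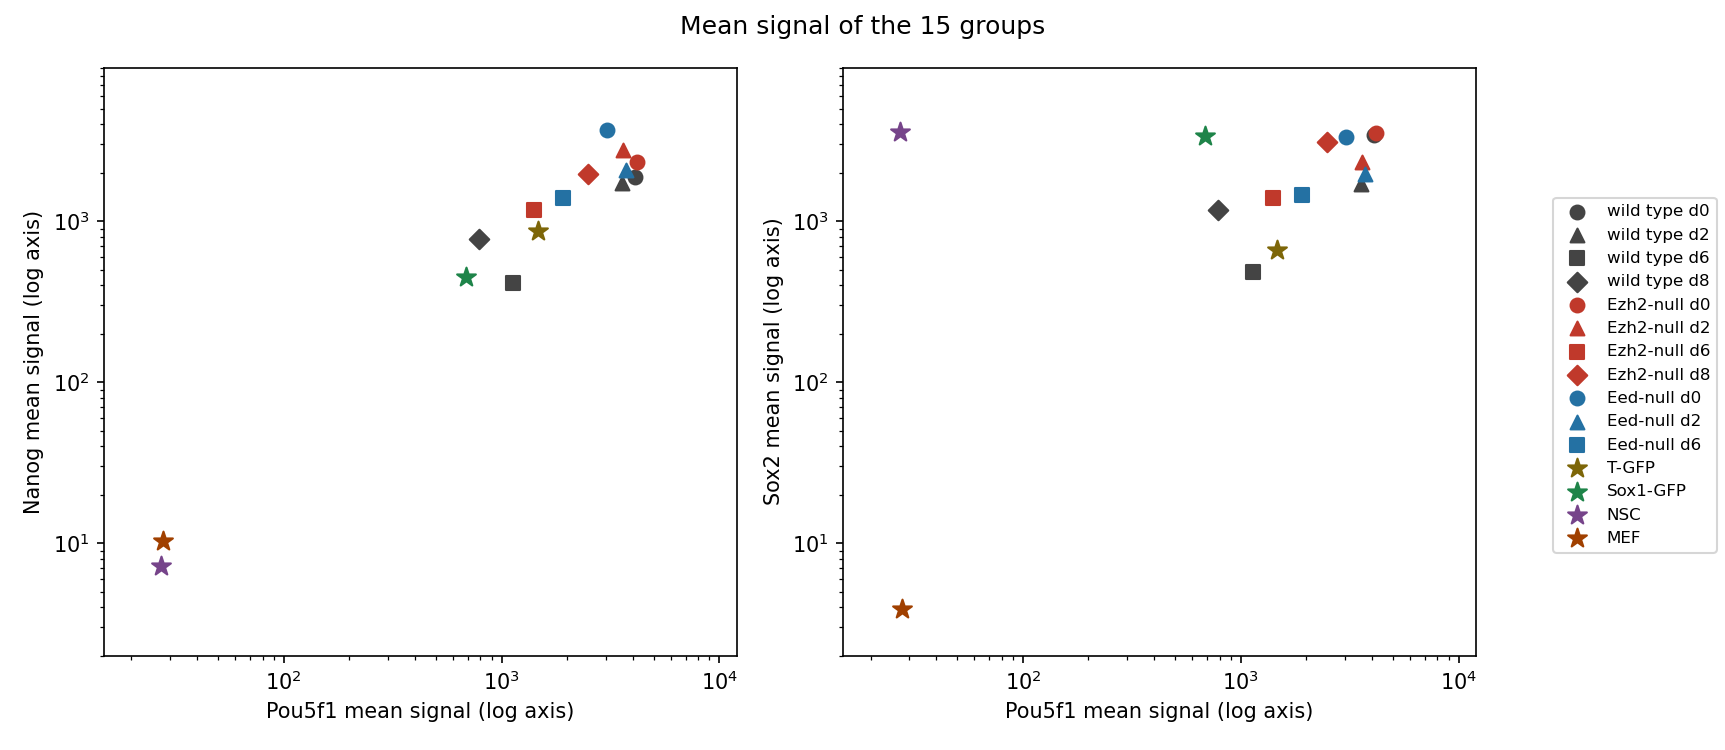
Mean signal of Nanog (left) and Sox2 (right) against that of Pou5f1 in the 15 groups, all axes in signal units on a log scale. Nanog and Pou5f1 lie along a line (r = 0.98 over group means), while NSC and Sox1-GFP cells have high Sox2 with low Pou5f1.

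Over the 29 comparisons Pou5f1 was called in 13, Nanog in 13 and Sox2 in 14. The share of all tested genes called went from 0.0507% to 24.1% between comparisons. The comparisons also reuse the same groups, so these totals have no common baseline. The likeness of the genes was described by Pearson's r of their mean log2 signals over the 15 groups. It was 0.98 for Pou5f1 with Nanog, 0.54 for Pou5f1 with Sox2 and 0.56 for Nanog with Sox2. Over the 11 ES cell groups alone the order was another, with 0.83, 0.78 and 0.91. Within groups, as deviations from the group mean over 53 arrays, Nanog and Sox2 went together (r = 0.91), Pou5f1 and Nanog at 0.56 and Pou5f1 and Sox2 at 0.39. Without Ezh2-null replicate 3 at day 6 these became 0.70, -0.45 and -0.51 over 52 arrays: Pou5f1 deviated against the other two, as it did between the array sets at days 2 and 6. The arrays share groups, sets and lines, so these r values describe these arrays only.

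By the same measure the genes most like Pou5f1 over the 15 group means were L1td1 (0.98), Zfp982 (0.98), Tdgf1 (0.98), Nanog itself (0.98) and Trim6 (0.98). Those most like Nanog were Zfp982 (0.98), Pou5f1 (0.98), L1td1 (0.98), Trim6 (0.97) and Dppa5a (0.96). L1td1, an RNA-binding protein, Tdgf1 (also called Cripto), a Nodal co-receptor, and Dppa5a are known ES cell genes. Those most like Sox2 were Dna2 (0.94), a replication helicase and nuclease, Gldc (0.92), of the glycine cleavage system, Zfp710 (0.91), Kpna3 (0.89) and Parp1 (0.89). Sox2 ranked 2298th of all tested genes by likeness to Pou5f1 and 2019th by likeness to Nanog. Pou5f1 and Nanog have near-identical processed pseudogenes in the genome, whose part in these signals was not tested.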

How the data were processed

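Total RNA was extracted with Trizol, per the labels' protocols, and hybridised to Affymetrix arrays. The authors deposited linear intensity values (0.4 to 33985.898) of 45037 probe sets on 53 arrays. Their summarisation and scaling are not given in the sources used here. Array medians differed by at most 0.20 on the log2(value + 32) scale, and the deposited intensity values were used without further normalisation. Arrays have no read depth; their number limits the precision.

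Groups came from the sample titles. Of the probe sets, 34945 had 1 gene symbol, 932 several and 9160 none, and only the first were used. The symbols of 34741 were matched by gene identifier to a current table, which changed 0. The probe set of highest mean stood for its gene (18193 genes), and 13807 genes, above the array median in at least 2 arrays, were tested. Each of the 29 comparisons is a contrast of 1 limma fit (limma 3.58.1, R 4.3.3) to log2(value + 32) with a mean for every group. The fit had 38 residual degrees of freedom, and 4.64 from the prior. P-values were adjusted by Benjamini-Hochberg. Genes of a list were named as its called members of largest change, up to 3 in each direction, and genes of like pattern as the 5 of highest r. The members and lists were chosen with earlier results of these data known.

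Array sets were found as the leading component of the differences within 4841 pairs of probe sets of 1 gene (35.8% of the variance). Same-numbered replicates deviated together in Ezh2-null against wild-type cells at day 2 (r from 0.566 to 0.7, 4 pairs) and day 6 (0.384 to 0.721, 5 pairs), and between days 2 and 6 in wild-type (0.469 to 0.751) and Ezh2-null cells (0.413 to 0.691). The pairing comes from the data and no label states it; it also follows the array sets. The replicate block changed no call of the 3 genes in those 4 comparisons. The fit was tested on simulated data of 13807 genes: of 50 genes changed 8-fold, 50 were recovered for the Ezh2-null difference at day 6, with 0 false calls. For the Ezh2-null course from day 6 to day 8, 44 of 50 genes changed 4-fold were recovered, with 4 false calls. The Eed-null course to day 6 had 5 false calls. The simulated noise was independent between arrays, without array sets, lines or an array that stood apart, so their effect was not tested there. Alternatives were quantile normalisation, median centring, a filter at the 75th percentile or none, pseudocounts 4 times lower (8) and higher, the mean of probe sets, a variance trend, array weights, only the arrays compared, 1 wild-type line or part of wild-type day 0, line as a random block, array set, the replicate block, and each array left out. Chosen after seeing the data were the crossed pairing at day 8 and the fit of every comparison without Ezh2-null day 6 replicate 3.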

Additional observations from a re-analysis of the deposited data

Results flagged for a closer look

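The 7 groups of 4 to 7 arrays were tested for each of the 3 genes, 21 tests in all. In 2 of them, both the same array, 1 array was far from the others; chance flags about 1 in 20. Nanog read 222.8 and Sox2 249.3 in Ezh2-null replicate 3 at day 6, with gaps of 0.751 and 0.835 of the group's range. Its Pou5f1 signal, 481.4, was also the lowest of the group and was within the limit.

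Of 9 tests of a difference in the course between genotypes, 5 had an adjusted p under 0.05 (limma). From day 0 to day 6, Ezh2-null and wild-type cells differed for Nanog by 0.91 ± 0.31 (adjusted p = 0.0389) and for Sox2 by 1.29 ± 0.37 (adjusted p = 0.012), and Eed-null and wild-type cells differed for Pou5f1 by 1.20 ± 0.32 (adjusted p = 0.00673) and for Sox2 by 1.70 ± 0.45 (adjusted p = 0.00617). In each the wild-type fall was the greater one. From day 6 to day 8, Ezh2-null and wild-type cells differed for Pou5f1 by 1.46 ± 0.37 (adjusted p = 0.0172), with both Ezh2-null arrays of day 8 above every Ezh2-null array of day 6 and the wild-type arrays overlapping.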

How the results depend on the processing

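No called value of Pou5f1, Nanog or Sox2 changed sign under any alternative; 54 of 2166 alternative values, not called in either setting, had the other sign and were at most 0.49 in size. Calls near 2-fold or near the limit changed as follows (log2 differences). Quantile normalisation called Nanog in Eed-null day 0 (1.07), Sox2 in Ezh2-null day 6 against 2 (-1.06) and Nanog in T-GFP against Sox1-GFP cells (1.10). Median centring called the same Sox2 step (-1.06) and Pou5f1 in Eed-null day 6 against 2 (-1.05). A pseudocount of 8 lost Nanog at day 8 in Ezh2-null cells (1.33, adjusted p = 0.0615) and called Sox2 in Ezh2-null day 6 against 2 (-1.02), Pou5f1 (1.00) and Nanog (1.01) in Ezh2-null day 8 against 6. A pseudocount 4 times higher lost Sox2 in wild-type day 2 (-0.98), Nanog in T-GFP cells (-0.99) and Pou5f1 between the GFP groups (0.97). No filter lost Nanog in Ezh2-null day 8 (1.31, adjusted p = 0.0578), as did line as a random block (1.26, adjusted p = 0.213). Array weights called Sox2 in Ezh2-null day 8 (1.36), Nanog in wild-type day 8 against 6 (1.02) and Nanog in the Ezh2-null course to day 6 (1.24), and lost Sox2 in wild-type day 2 (-0.75) and Pou5f1 between the GFP groups (0.99). With only the arrays compared, Nanog (1.22, adjusted p = 0.11) and Sox2 (1.33, adjusted p = 0.133) in Ezh2-null day 6 were lost. So were Sox2 in wild-type (1.35) and Ezh2-null (1.38) day 8 against 6, Nanog in Ezh2-null day 6 against 2 (-1.46), and the differing courses of Sox2 to day 6 (1.29) and of Pou5f1 to day 8 (1.46), while Sox2 in Ezh2-null day 8 was called (1.36).

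Against J1 alone, Sox2 was lost in Ezh2-null day 6 (0.99), wild-type day 2 (-0.77) and the courses of Ezh2-null (0.98) and Eed-null cells (1.39), as was Nanog in T-GFP cells (-0.86), and Nanog in Eed-null day 0 was called (1.17). Against CJ7 alone, Nanog in wild-type day 8 against 6 was called (1.10) and the Pou5f1 course of Eed-null cells lost (0.93). With wild-type day 0 replicates 1 to 3, Nanog was called in Eed-null day 0 (1.06) and lost in T-GFP cells (-0.96); with 4 to 7, Sox2 was lost in wild-type day 2 (-0.98). In the second array set alone Sox2 in Ezh2-null day 6 against 2 was called (-1.31). The replicate block, where numbers do not pair the arrays, called Sox2 in Ezh2-null day 8 (1.36), Pou5f1 in Eed-null day 6 (1.19) and in Ezh2-null day 8 against 6 (1.05). It lost Sox2 in Eed-null day 6 (0.92), in wild-type (0.61) and Ezh2-null (0.81) day 8 against 6 and in the Ezh2-null course to day 6 (1.30, adjusted p = 0.123), Nanog in T-GFP cells (-0.86) and Pou5f1 between the GFP groups (0.98). It changed no other call of the 3 genes. With replicate numbers crossed at day 8 (r = -0.199 as numbered), 234 genes were called, against 147.

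Leaving out 1 array at a time changed calls of Pou5f1 in Ezh2-null day 8 (1.45 to 1.81) and day 8 against 6 (0.65 to 1.20), in the courses of Eed-null cells to day 6 (1.06 to 1.30) and of Ezh2-null cells to day 8 (1.13 to 1.68), and between the GFP groups (0.95 to 1.17). For Nanog it changed those in Ezh2-null day 8 (1.19 to 1.42), day 6 against 2 (-1.61 to -0.96), day 8 against 6 (0.48 to 1.14) and day 6 against 0 (-1.37 to -0.71), in the Ezh2-null course to day 6 (0.76 to 1.41) and in T-GFP cells (-1.12 to -1.03). For Sox2 it changed those in Ezh2-null day 8 (1.16 to 1.57), wild-type day 2 (-1.14 to -0.90, without day 2 replicate 3 or 4 or day 0 replicate 1) and day 8 against 6 (1.17 to 1.54), Ezh2-null day 6 against 2 (-1.15 to -0.48) and day 8 against 6 (0.86 to 1.58), and Eed-null day 6 against 0 (-1.22 to -1.15). The Pou5f1 course of Eed-null cells is lost without day 6 replicate 1 (adjusted p = 0.0582). That of Ezh2-null cells to day 8 is lost without Ezh2-null replicate 1 or 2 of day 8 or wild-type replicate 1 (adjusted p = 0.0627, 0.0969 and 0.194). Nanog in T-GFP cells is lost without T-GFP replicate 1 (adjusted p = 0.0504), and Pou5f1 between the GFP groups without T-GFP replicate 2 (adjusted p = 0.0556) or Sox1-GFP replicate 3. The cause was not tested.

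The number of genes called moved more. For Ezh2-null against wild-type cells, other settings gave from 5 to 221 at day 0 (7 in the report; 221 against J1 alone), 4 to 101 at day 2 (17), 192 to 794 at day 6 (418) and 86 to 235 at day 8 (147; 51 without wild-type replicate 1). For Eed-null cells it was 100 to 605 at day 0 (312), 52 to 666 at day 2 (143) and 207 to 956 at day 6 (428). For wild-type and Ezh2-null day 8 against 6 it was 10 to 752 (133) and 0 to 1193 (365), and for Ezh2-null against Eed-null day 6 it was 25 to 960 (102). The higher pseudocount gave the fewest in most comparisons. Each gene had 1 probe set, so an alternative with another probe set gave no value and the mean of probe sets left the 3 genes as they were.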
